A study of Mus musculus with 32 samples.

Results

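The genes described here encode the metzincin proteases of the MMP, ADAM and ADAMTS families and their inhibitors, the TIMPs. Members were taken by gene symbol from the annotated expression matrix: every probe set whose symbol starts with Mmp, Adam or Adamts followed by a digit, or is Timp1 to Timp4. The rule found 63 of 18328 probe sets. With the brighter probe set kept for Adam22, Adam23 and Adam28, these gave 60 of 17297 features, made up of 18 MMPs, 27 ADAMs, 11 ADAMTS and 4 TIMPs. No filter on low values was applied, so all 60 were tested, and 3 of them match more than 1 gene (Adam1a with Adam1b, or Adam1a with Mapkapk5) and are not given as single genes.

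The arrays measured 22 mouse high-grade gliomas and 10 samples of normal brain, in 2 sets that the labels call Z1 and Z2. Set Z1 held 3 forebrains and 9 tumours of the genotype hGFAP-cre;p53KO/+;Nf1+/flox, named cis p53/Nf1 gliomas here. Set Z2 held 4 forebrains, 3 cerebella and 2 kinds of tumour. Of these, 9 had the genotype hGFAP-cre;p53flox/flox (p53 gliomas), and 4 had the genotype hGFAP-cre;p53flox/flox;Nf1KO/+ (p53 Nf1KO gliomas). All 3 glioma genotypes carry Cre recombinase under the human GFAP promoter, which is active in neural progenitors and astrocytes. They differ in their p53 alleles and in whether a mutant allele of Nf1, the gene of the RAS inhibitor neurofibromin, is present. The protocol describes the control tissue as wild-type brain. Ages are not given, nor what Z1 and Z2 stand for. Nothing in the labels says that the samples of a group came from separate animals, so p-values measure the spread between these samples.

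Levels are the authors' log2 values, and a difference of 1 is a 2-fold change. Array medians were 8.48 to 8.57 in Z1 and 6.90 to 7.06 in Z2, and the spread within an array was smaller in Z1 (SD 2.01 to 2.12) than in Z2 (SD 2.58 to 2.66). For this reason tumours were set only against the forebrains of the same set, and sizes of a change in Z1 and Z2 are not on exactly the same scale. The labels of the tissues were checked against markers. The mean of 8 mitosis genes was 6.07 to 6.30 in Z1 forebrain and 9.05 to 11.56 in cis p53/Nf1 gliomas, and 3.77 to 4.39 in Z2 forebrain against 5.01 to 9.63 in p53 and 6.91 to 9.34 in p53 Nf1KO gliomas. The mean of 9 cerebellar genes was 8.55 to 10.11 in the cerebella and 5.76 to 6.94 in Z2 forebrain. The p53 glioma 1 stood apart: along the mean change of the other p53 gliomas from forebrain it moved 13.5% of the way over all features and 13.1% over the 60 members. The p53 Nf1KO glioma 2 moved 45% and 43.4% of the way. Z2 forebrain 2 had a granulocyte marker mean of 8.56, against 4.84 to 5.44 in the other 3 forebrains of the set.

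Metalloproteases of these families hold a zinc ion in the active site and are made as inactive precursors. MMPs are secreted or anchored at the cell surface and cut matrix proteins and one another; ADAMs sit in the membrane and release the outer parts of growth factors, receptors and adhesion proteins; ADAMTS enzymes are secreted and cut proteoglycans and procollagens. TIMPs bind the active site and block it. In brain, where the matrix is rich in hyaluronan and its chondroitin sulphate proteoglycans, and in glioma, these enzymes are studied for their part in matrix turnover and invasion.

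Promoters are shown for 4 secreted MMP genes that lie in one cluster on chromosome 9 and that were high together in some p53 gliomas. The sequences are the 250 bases before the annotated gene start from RefSeq, build GRCm38.p6, all on the + strand: Mmp13 at chr9:7272264-7272513, Mmp10 at chr9:7502092-7502341, Mmp3 at chr9:7445572-7445821 and Mmp12 at chr9:7344147-7344396. Capitals mark the motifs searched on both strands, the AP-1 site TGANTCA and the TATA box TATAAA.
Mmp13: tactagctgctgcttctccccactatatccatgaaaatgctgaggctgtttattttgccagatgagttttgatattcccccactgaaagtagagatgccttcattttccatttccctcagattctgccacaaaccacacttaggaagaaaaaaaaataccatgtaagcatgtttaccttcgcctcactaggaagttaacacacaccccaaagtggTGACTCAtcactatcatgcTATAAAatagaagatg
Mmp10: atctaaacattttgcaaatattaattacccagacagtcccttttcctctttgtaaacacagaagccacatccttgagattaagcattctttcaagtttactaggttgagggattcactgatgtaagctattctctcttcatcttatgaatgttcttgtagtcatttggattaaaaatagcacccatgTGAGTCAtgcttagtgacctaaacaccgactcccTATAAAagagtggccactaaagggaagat
Mmp3: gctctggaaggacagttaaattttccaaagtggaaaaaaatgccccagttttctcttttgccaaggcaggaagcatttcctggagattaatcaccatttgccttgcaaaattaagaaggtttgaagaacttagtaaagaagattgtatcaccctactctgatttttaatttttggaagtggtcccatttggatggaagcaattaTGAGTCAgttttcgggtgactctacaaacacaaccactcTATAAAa
Mmp12: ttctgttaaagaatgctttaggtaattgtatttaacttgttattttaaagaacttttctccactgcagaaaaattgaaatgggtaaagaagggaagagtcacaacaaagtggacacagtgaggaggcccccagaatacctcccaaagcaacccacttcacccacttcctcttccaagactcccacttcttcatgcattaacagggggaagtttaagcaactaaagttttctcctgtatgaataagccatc
The AP-1 site starts 35 bases before the gene start in Mmp13, 63 in Mmp10 and 46 in Mmp3, and each of these has a TATA box downstream of it, while the Mmp12 window shown holds neither set of letters. Mmp12 has 2 promoter entries in the reference. For genes with several entries only the first was searched, here and in the counts that follow. Of the 60 members 32 had a promoter in the reference table. The AP-1 letters were in 7 of the 32, against 6.87% of all 27025 promoters, and the TATA letters in 8 of the 32, against 13.0% of all. All 8 measured genes of the chromosome 9 cluster had a promoter, and 6 of them (Mmp13, Mmp1b, Mmp3, Mmp10, Mmp20 and Mmp7) held both motifs. Of the other 24 members with a promoter 1 held the AP-1 letters (Adam25) and 2 the TATA letters (Adamts1 and Adam6a). A match of letters is a description and not a measured site.

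Differences from forebrain were tested with limma over all 17297 features, and calls were made at an adjusted p under 0.05 (Benjamini-Hochberg). In cis p53/Nf1 gliomas 17 of 60 members were called, 12 higher and 5 lower, which is 28.3% against 42.1% of all features (21.9% higher and 20.3% lower). In p53 gliomas 24 were called, 15 higher and 9 lower, which is 40% against 38.3% of all features (17.7% higher and 20.6% lower). In p53 Nf1KO gliomas 9 were called, 7 higher and 2 lower, which is 15% against 8.27% of all features (5.23% higher and 3.04% lower). Over all features 63.2% of the calls in p53 Nf1KO gliomas were higher, and 52.9% when each array was centred on its median. The members' share was below, near and above the background in the 3 models. In p53 Nf1KO gliomas both shares moved with single arrays, from 3.33% of members against 2.39% of all features without glioma 4 to 23.3% against 14.5% without glioma 2. Of the members called, 13, 15 and 6 differed at least 2-fold, and the share of all features under that rule was not counted. The median size of the difference, regardless of direction, was 0.32 over members and 0.43 over all features for the cis p53/Nf1 model, 0.59 and 0.36 for p53 gliomas, and 0.32 and 0.28 for p53 Nf1KO gliomas. Calls lost with the replicate number as a block are not listed gene by gene below. Among them were the p53 glioma calls of Mmp2, Mmp14, Mmp15, Adam11, Adam17, Adam22, Adam23, Adamts1, Adamts5 and Timp1. The cis p53/Nf1 calls of Adam10, Adam22 and Adamts5 were also lost in that fit. The p53 and p53 Nf1KO gliomas share the 4 Z2 forebrains as controls. Of the models with separate controls, cis p53/Nf1 and p53 gliomas, 9 members were called higher in both, which is 75% of the first list and 60% of the second, and 5 were called lower in both, which is 100% of the first and 55.6% of the second. Over all features the shared calls were 60% and 74.3% of the 2 lists of higher calls, and 69.2% and 68.1% of the lists of lower calls.

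**Figure D1:**
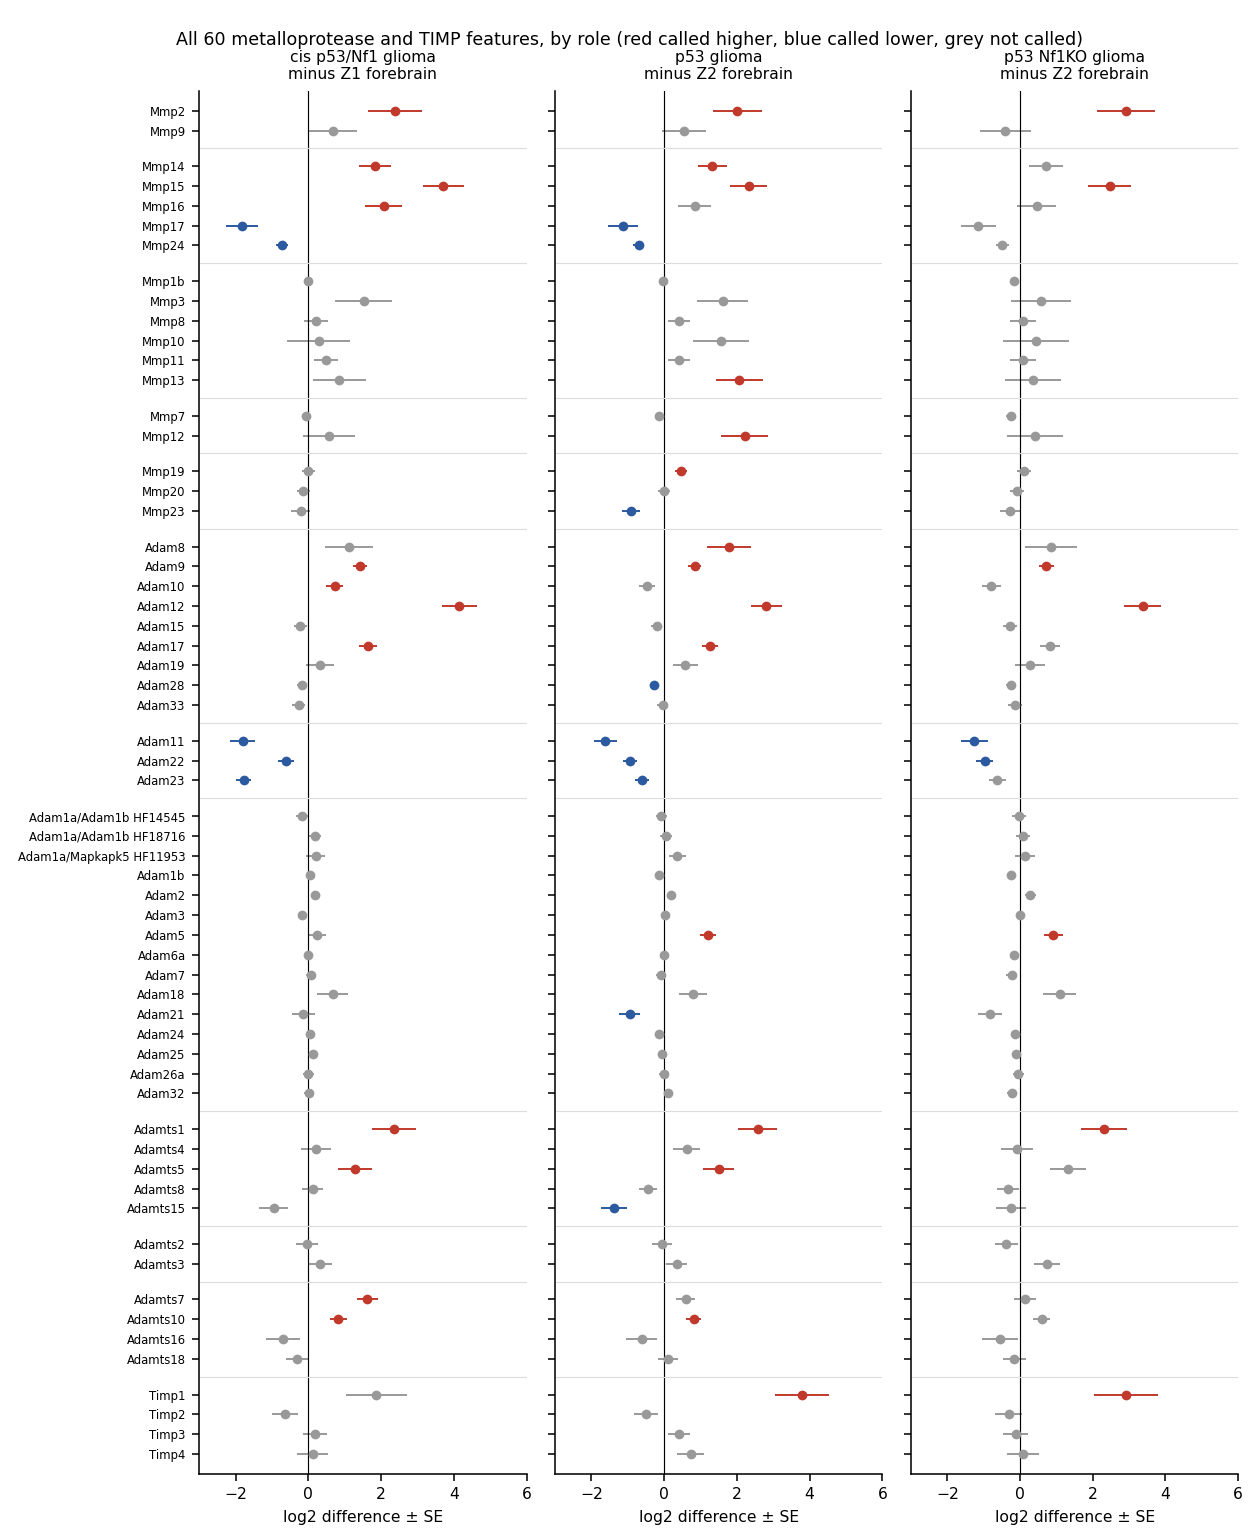
Log2 difference from own-set forebrain (horizontal axis, bars are the standard error of the limma fit) for all 60 members, 1 line per member, in the 3 glioma models. Red marks members called higher, blue called lower and grey not called; Adam12 lies furthest right in cis p53/Nf1 gliomas at 4.14, Timp1 in p53 gliomas at 3.79 and Adam12 in p53 Nf1KO gliomas at 3.38.

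The gelatinases cut basement membrane collagen and denatured collagen. Of these, Mmp2 rose in each model, and Mmp9 was called in none without the replicate number as a block. Mmp2 read 7.65, 7.26 and 7.38 in Z1 forebrain and 8.51 to 12.35 (median 9.87) in the 9 cis p53/Nf1 gliomas. In Z2 it read 5.80, 5.48, 6.19 and 5.84 in forebrain, 5.98 to 10.60 (median 7.97) in p53 gliomas and 7.61, 6.86, 10.18 and 10.30 in p53 Nf1KO gliomas. Every glioma except p53 glioma 1 lay above all forebrains of its set. The difference was 2.38 ± 0.75 (SE, limma adjusted p = 0.011) for the cis p53/Nf1 model, 2.01 ± 0.67 (adjusted p = 0.0196) in p53 gliomas and 2.91 ± 0.79 (adjusted p = 0.023) in p53 Nf1KO gliomas, which are 5.2-fold, 4.04-fold and 7.5-fold. The call in p53 gliomas was lost without Z2 forebrain 2 (1.90, adjusted p = 0.0573). The call in p53 Nf1KO gliomas was lost in the fit to the compared groups alone and when Z2 forebrain 2 or 4 or p53 Nf1KO glioma 3 or 4 was left out. Cis p53/Nf1 glioma 8 had the highest Mmp2, 12.35 against 10.20 in the next, and the difference without it was 2.06. The same glioma had the lowest oligodendrocyte progenitor marker mean of its model (10.77; range 10.77 to 13.13) and the highest astrocyte marker mean (11.49; range 8.65 to 11.49), and their part in its Mmp2 level was not tested.

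Mmp9 varied between tumours. It read 7.14, 6.81 and 6.93 in Z1 forebrain and 6.42 to 8.91 (median 7.72) in cis p53/Nf1 gliomas, of which 6 lay above and 3 below all forebrains. In p53 gliomas it ran from 3.93 to 8.42 (median 4.78) around forebrains of 4.79, 5.21, 4.91 and 4.58, with 8.42 in glioma 9 and 7.27 in glioma 2. The p53 Nf1KO gliomas read 4.10, 4.51, 4.62 and 4.64. The groups overlapped in each comparison, and the differences were 0.68 ± 0.67, 0.55 ± 0.60 and -0.40 ± 0.71. With the replicate number as a block Mmp9 was called higher in cis p53/Nf1 gliomas (limma adjusted p = 0.0459).

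The membrane-type MMPs are held at the cell surface, and Mmp14 among them activates the precursor of Mmp2. All 5 measured genes were called in cis p53/Nf1 gliomas, 3 higher and 2 lower, and in p53 gliomas 2 rose and 2 fell. In p53 Nf1KO gliomas 1 rose. The called shares were 100%, 80% and 20%, against 42.1%, 38.3% and 8.27% of all features. Mmp15 read 8.35, 8.76 and 9.19 in Z1 forebrain and 11.62 to 13.54 (median 12.38) in cis p53/Nf1 gliomas, with no overlap. It read 7.61, 7.22, 8.15 and 7.49 in Z2 forebrain, 7.09 to 11.26 (median 10.47) in p53 gliomas and 9.72, 9.33, 10.54 and 10.76 in p53 Nf1KO gliomas. The p53 glioma 1 was at 7.09, below all forebrains, and the other 8 were above them. Mmp15 was 13.1-fold, 4.99-fold and 5.54-fold higher (3.71 ± 0.56, 2.32 ± 0.50 and 2.47 ± 0.59; limma adjusted p = 5.63e-06, 0.000917 and 0.0107), and the last call was lost without p53 Nf1KO glioma 4.

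Mmp14 read 8.29, 8.35 and 8.39 in Z1 forebrain against 9.49 to 11.76 (median 9.91) in cis p53/Nf1 gliomas. In Z2 it read 4.61, 4.79, 4.81 and 4.79 in forebrain, 4.78 to 7.81 (median 5.84) in p53 gliomas and 4.96, 4.84, 6.62 and 5.44 in p53 Nf1KO gliomas. It rose by 1.83 ± 0.44 and 1.33 ± 0.40 in the first 2 models (adjusted p = 0.00124 and 0.00988), and in p53 Nf1KO gliomas, where the 4 tumours lay above forebrain, the difference was 0.71 ± 0.47 (adjusted p = 0.337). Mmp16 rose in cis p53/Nf1 gliomas (2.08 ± 0.51, adjusted p = 0.00141), from 7.08, 7.75 and 7.0 to 6.15 to 10.23 (median 9.91). Glioma 8 alone was low there, at 6.15 against at least 8.78 in the others, and the difference was 2.48 without it. The Mmp16 differences in p53 and p53 Nf1KO gliomas were 0.84 ± 0.46 and 0.46 ± 0.54 and were not called. The changes were not called different between models (cis p53/Nf1 change minus p53 change 1.24 ± 0.68, adjusted p = 0.387).

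Mmp17, a glycolipid-anchored enzyme, and Mmp24, an enzyme of neurons, went the other way. Mmp17 read 10.92, 11.01 and 10.49 in Z1 forebrain and 8.33 to 9.51 (median 9.18) in cis p53/Nf1 gliomas, a fall of 3.55-fold (-1.83 ± 0.45, limma adjusted p = 0.0016). In p53 gliomas it fell by 1.13 ± 0.41 (adjusted p = 0.0293), with values of 7.07 to 9.69 against 9.40, 9.94, 9.32 and 9.98, and this call was lost in the fit to the compared groups alone and without Z2 forebrain 2 or 4 or p53 glioma 2 or 9. Mmp24 fell by 0.72 ± 0.17 and 0.70 ± 0.15 (adjusted p = 0.000939 and 0.000962). All 18 gliomas of these 2 models lay below their forebrains for Mmp24, which read 9.04, 9.11 and 9.08 in Z1 and 7.85, 7.77, 7.72 and 7.82 in Z2.

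The secreted MMP genes measured in the chromosome 9 cluster were, in order, Mmp13, Mmp12, Mmp1b, Mmp3, Mmp10, Mmp8, Mmp20 and Mmp7. Of these, Mmp13, Mmp12, Mmp3 and Mmp10 were far above their forebrain level in some p53 gliomas, and these tumours differed between genes. Of the 9 p53 gliomas, 6 lay above all forebrains for Mmp13, 7 for Mmp12, 8 for Mmp3 and 5 for Mmp10. Mmp12, the macrophage elastase, read 3.09, 2.83, 2.63 and 2.80 in Z2 forebrain and 2.88 to 8.66 (median 4.89) in p53 gliomas, with 8.66 in glioma 2 and 6.96 in glioma 4. Mmp13, a collagenase, read 2.15, 2.89, 2.13 and 2.32 in Z2 forebrain and 2.59 to 6.56 (median 4.77) in p53 gliomas, with 6.56, 6.06 and 6.15 in gliomas 2, 7 and 9. Both rose in p53 gliomas, by 2.21 ± 0.65 (limma adjusted p = 0.00867) and 2.06 ± 0.65 (adjusted p = 0.0139), and neither was called in the fit to the compared groups alone. The group ranges overlapped.

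The stromelysins Mmp3 and Mmp10 showed the same tumours more sharply. Mmp10 was 7.93, 8.07 and 8.92 in p53 gliomas 2, 7 and 9, and 3.46 to 4.06 in the other 6, where the forebrains read 3.72, 3.71, 3.65 and 3.54. Mmp3 was 9.37 in glioma 2 and 6.98 in glioma 7 and at most 4.75 in the others, beside forebrains of 3.35, 3.07, 3.64 and 3.57. Neither Mmp10 nor Mmp3 was called (1.57 ± 0.77, adjusted p = 0.11, and 1.61 ± 0.70, adjusted p = 0.0705). More than 2 log2 units above the highest Z2 forebrain, a margin chosen after the values were seen, were gliomas 2 and 7 for Mmp3, gliomas 2, 7 and 9 for Mmp10, gliomas 2, 4, 7 and 9 for Mmp12 and gliomas 1, 2, 7 and 9 for Mmp13. None of the 4 p53 Nf1KO gliomas reached that margin for any of these genes. Their highest values were 5.08 for Mmp3 and 5.31 for Mmp10, both in glioma 2, 3.93 for Mmp12 and 3.47 for Mmp13.

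**Figure D2:**
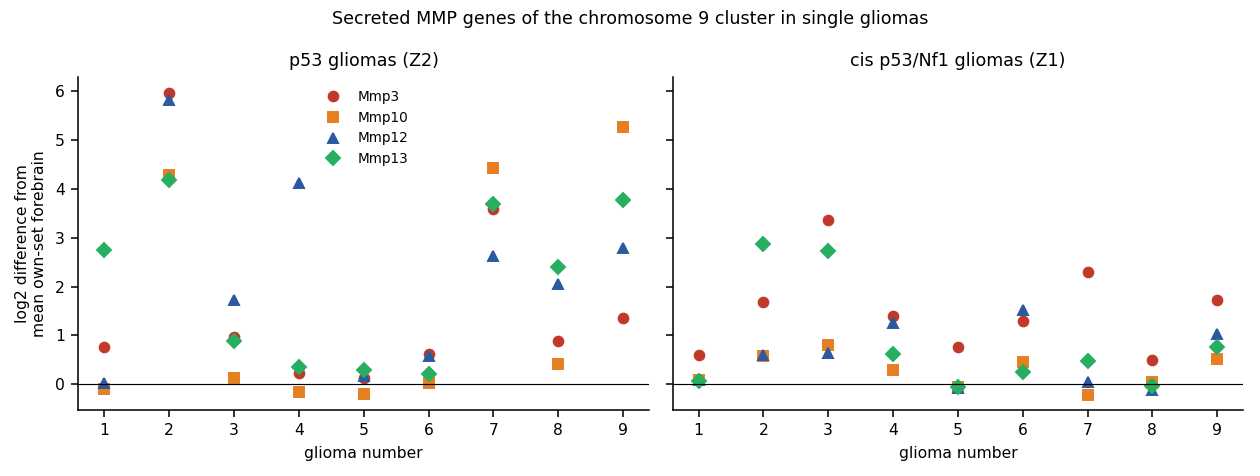
Log2 difference of each single glioma from the mean of its own-set forebrains (vertical axis) for Mmp3, Mmp10, Mmp12 and Mmp13, by glioma number (horizontal axis), for the p53 model (left) and the cis p53/Nf1 model (right). In p53 gliomas 2 and 7 all 4 genes lie well above 0, with Mmp10 at 7.93 and 8.07 on the level scale, while gliomas 5 and 6 lie near 0.

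In cis p53/Nf1 gliomas the same margin above the highest Z1 forebrain was passed by gliomas 3 and 7 for Mmp3 and by gliomas 2 and 3 for Mmp13, and by none for Mmp10 and Mmp12. Mmp13 was 7.55 and 7.41 in gliomas 2 and 3 and 4.62 to 5.43 in the others, beside forebrains of 4.64, 4.69 and 4.70. All 9 gliomas lay above the 3 forebrains for Mmp3 (6.50 to 9.37, median 7.42, against 6.05, 6.0 and 5.99), but the difference was not called (1.52 ± 0.78, limma adjusted p = 0.123). Mmp8, the neutrophil collagenase, had its highest p53 glioma values in glioma 7 (5.76) and glioma 2 (5.02), and was called in no model. Mmp1b, Mmp20 and Mmp7 were not called in any glioma model either. The granulocyte marker mean was also highest in p53 gliomas 7 (6.56) and 2 (5.81) of its range of 3.74 to 6.56, and the microglia and macrophage mean was highest in gliomas 2 (9.52) and 4 (9.50) of its range of 8.25 to 9.52. The pericyte and fibroblast mean was 8.53 in glioma 2 and 8.51 in glioma 7, and 6.34 to 7.42 in the others. Over the lists, 0 of 6 granulocyte genes were called higher and 2 lower, 5 of 10 microglia genes were called higher, and 0 of 9 pericyte and fibroblast genes higher and 1 lower in p53 gliomas. Their part in the levels of these MMPs was not tested. In Z2 forebrain 2 the granulocyte mean was 8.56, against 4.84 to 5.44 in the other Z2 forebrains. Mmp8 was 4.39 in that array and at most 3.58 in the others. The part of Z2 forebrain 2 in the granulocyte and Mmp8 results was not tested.

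Between p53 Nf1KO and p53 gliomas no member was called, where 0.145% of all features were, and 6 of 60 had an unadjusted limma p under 0.05. These were Mmp12 (-1.80 ± 0.65, adjusted p = 0.283), Mmp13 (-1.71 ± 0.65, adjusted p = 0.301), Mmp19, Mmp23, Adam32 and Adamts15 (1.15 ± 0.36, adjusted p = 0.206). The share of all features at that unadjusted threshold was not counted, so these 6 are not set against a background. Without p53 glioma 1 Adamts15 was called (1.28, adjusted p = 0.0441). The mean of 5 choroid plexus markers was 3.88 to 5.73 in p53 gliomas, 5.42 to 8.52 in p53 Nf1KO gliomas and 5.38 to 8.44 in Z2 forebrain. Of the 5, 4 were called lower in p53 gliomas against forebrain and none in p53 Nf1KO gliomas or between the models, and their part in these values was not tested.

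The sheddase ADAMs release membrane-bound ligands and receptors. Of the 9 measured, 4 rose in cis p53/Nf1 gliomas, 4 rose and 1 fell in p53 gliomas, and 2 rose in p53 Nf1KO gliomas. The called shares were 44.4%, 55.6% and 22.2%, against 42.1%, 38.3% and 8.27% of all features. Adam12, which releases EGF receptor ligands and in mouse is known from fusing muscle and from regenerating tissue, showed the largest rise of all members in 2 of the 3 models. It read 6.65, 7.16 and 6.98 in Z1 forebrain and 10.50 to 11.53 (median 11.11) in cis p53/Nf1 gliomas. It read 6.69, 5.99, 6.45 and 6.05 in Z2 forebrain, 6.54 to 10.65 (median 9.03) in p53 gliomas and 9.78, 8.82, 10.31 and 9.78 in p53 Nf1KO gliomas. All gliomas lay above their forebrains except p53 glioma 1, at 6.54 against 8.59 in the next lowest. The rise was 17.7-fold for the cis p53/Nf1 model (4.14 ± 0.48, limma adjusted p = 1.98e-07), 7.0-fold in p53 gliomas (2.81 ± 0.43, adjusted p = 3.17e-05) and 10.4-fold in p53 Nf1KO gliomas (3.38 ± 0.51, adjusted p = 0.000211). Without p53 glioma 1 the rise in p53 gliomas was 3.13.

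Adam9, a widely expressed sheddase, rose with little spread. It read 10.78, 10.78 and 10.92 in Z1 forebrain and 11.71 to 12.72 (median 12.20) in cis p53/Nf1 gliomas, and in Z2 10.36, 10.54, 10.25 and 10.50 in forebrain, 10.59 to 11.57 (median 11.37) in p53 gliomas and 11.25, 10.75, 10.88 and 11.66 in p53 Nf1KO gliomas. No glioma overlapped with forebrain, and the rises were 2.66-fold, 1.79-fold and 1.65-fold (limma adjusted p = 1.41e-06, 0.000569 and 0.0264). The last call was lost in the fit to the compared groups alone and without Z2 forebrain 1 or 3 or p53 Nf1KO glioma 1 or 4. Adam17, which releases TNF and EGF receptor ligands, rose by 1.64 ± 0.25 and 1.26 ± 0.23 in cis p53/Nf1 and p53 gliomas (adjusted p = 6.79e-06 and 0.000162). The p53 Nf1KO gliomas read 7.71, 7.11, 7.47 and 8.06 for Adam17 against forebrains of 6.77, 6.48, 7.11 and 6.69, a difference of 0.83 ± 0.27 that missed the threshold (adjusted p = 0.0506). Adam17 was called higher there in 4 of 16 alternative fits, with other settings or 1 array left out. Adam8, found on myeloid cells, rose in p53 gliomas by 1.78 ± 0.60 (adjusted p = 0.0201), with 8.87 in glioma 7 and 8.06 in glioma 2 and a lowest value of 4.06 in glioma 1. Adam28 fell there by 0.28 ± 0.11 (adjusted p = 0.0362), while its second probe set had a difference of -0.10 ± 0.10 that was not called (adjusted p = 0.431).

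**Figure D3:**
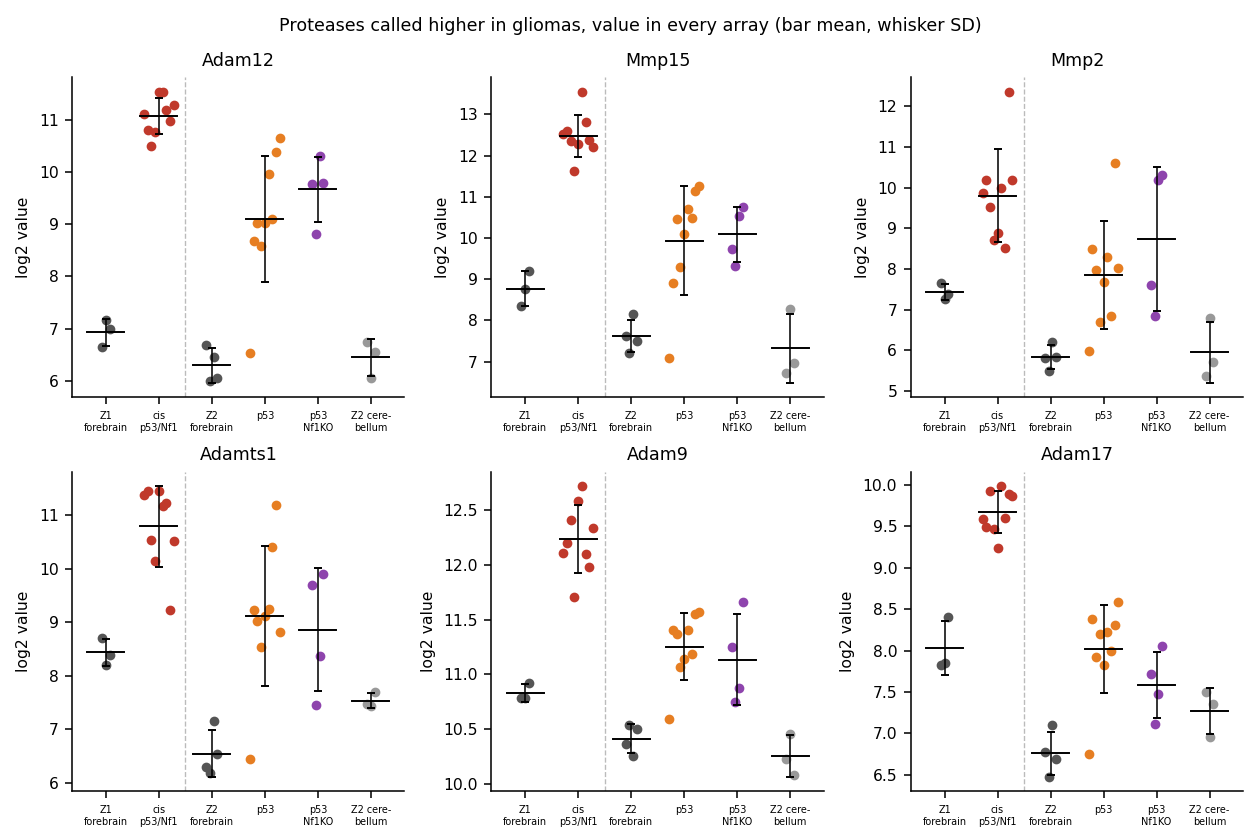
Log2 value in every array for Adam12, Mmp15, Mmp2, Adamts1, Adam9 and Adam17, with the group mean (bar) and SD (whisker), for the 6 groups; the dashed line parts set Z1 from set Z2, whose scales differ. The gliomas of each model sit above the forebrains of their set, apart from p53 glioma 1 in the panels other than Adam9; it is at 6.54 for Adam12 and 7.09 for Mmp15.

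Adam10, the sheddase that cuts Notch and cadherins, differed in direction between sets. It read 9.39, 9.42 and 9.17 in Z1 forebrain and 9.66 to 10.36 (median 10.03) in cis p53/Nf1 gliomas, all above forebrain. In Z2 it read 6.69, 6.13, 6.87 and 6.75 in forebrain, 5.49 to 6.61 (median 6.17) in p53 gliomas and 5.91, 5.89, 5.70 and 5.79 in p53 Nf1KO gliomas, the latter all below forebrain. It rose by 0.72 ± 0.24 (limma adjusted p = 0.0174) in cis p53/Nf1 gliomas, and the differences in the other models were -0.47 ± 0.22 (adjusted p = 0.0865) and -0.79 ± 0.26 (adjusted p = 0.0534). The difference between the changes was 1.51 ± 0.35 (adjusted p = 0.0163) against p53 Nf1KO gliomas and 1.19 ± 0.33 (adjusted p = 0.0532) against p53 gliomas. Both that rise and the first of these differences lost their call without Z1 forebrain 3. In the alternative fits Adam10 was called lower in p53 gliomas in 3 of 21 and in p53 Nf1KO gliomas in 5 of 16. The difference between the changes against p53 gliomas was called in 9 of 33. The set and the genotype cannot be told apart in such a comparison. The first comparison of changes called 3 of 60 members, where 3.94% of all features were called, and the second called 1, where 1.75% were.

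Adam11, Adam22 and Adam23 lack the zinc-binding residues of an active protease and act as adhesion proteins and receptors at synapses; ADAM22 and ADAM23 bind the secreted protein LGI1. All 3 fell in cis p53/Nf1 and in p53 gliomas, and Adam11 and Adam22 also fell in p53 Nf1KO gliomas. Adam11 read 9.13, 8.97 and 9.09 in Z1 forebrain and 7.05 to 7.47 (median 7.24) in cis p53/Nf1 gliomas. In Z2 it read 7.02, 7.30, 7.67 and 7.59 in forebrain, 4.79 to 6.81 (median 6.04) in p53 gliomas and 5.79, 7.24, 6.73 and 4.82 in p53 Nf1KO gliomas. Of the 22 gliomas only p53 Nf1KO glioma 2, at 7.24, lay within the forebrain range. The differences were -1.81 ± 0.35, -1.62 ± 0.32 and -1.25 ± 0.37 (limma adjusted p = 0.000138, 0.000392 and 0.0362), and the last was lost in the fit to the compared groups alone and without Z2 forebrain 2, 3 or 4 or p53 Nf1KO glioma 1 or 4.

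Adam22 fell by 0.61 ± 0.22, 0.94 ± 0.20 and 0.97 ± 0.23 (adjusted p = 0.0245, 0.000666 and 0.0107), with p53 Nf1KO gliomas at 5.60, 6.06, 5.65 and 5.30 against forebrains of 6.92, 6.88, 6.49 and 6.20. The first of these calls was lost without Z1 forebrain 1 or 2, and the last without p53 Nf1KO glioma 4. A second probe set of the gene fell by 0.93 ± 0.26, 1.23 ± 0.23 and 0.95 ± 0.27. Adam23 read 9.33, 9.32 and 9.82 in Z1 forebrain and 7.12 to 8.14 (median 7.66) in cis p53/Nf1 gliomas. It read 9.71, 9.997, 9.98 and 9.84 in Z2 forebrain, 8.39 to 9.87 (median 9.29) in p53 gliomas and 9.06, 9.43, 9.45 and 9.11 in p53 Nf1KO gliomas, all below forebrain in the last group. It fell by 1.78 ± 0.22 (limma adjusted p = 3.42e-07) in the first model and by 0.62 ± 0.19 (adjusted p = 0.0132) in the second; the third had the difference -0.62 ± 0.23 (adjusted p = 0.0842). The third difference was called in the fit to the compared groups alone. The dimmer Adam23 probe set fell by 1.30 ± 0.32 in the first model (adjusted p = 0.00162) and was not called in p53 gliomas (-0.50 ± 0.29, adjusted p = 0.178). The change in cis p53/Nf1 gliomas was lower than in the other models by 1.16 ± 0.29 (adjusted p = 0.0342) and by 1.16 ± 0.31 (adjusted p = 0.033). That probe set gave -0.80 ± 0.43 and -0.78 ± 0.47 for these differences, which were not called, and both calls were also lost when any 1 of the 3 Z1 forebrains, Z2 forebrain 1, 3 or 4, or some single gliomas were left out.

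Markers of mature neurons moved the same way. All 10 were called lower in cis p53/Nf1 gliomas, 8 of 10 in p53 gliomas and 0 of 10 in p53 Nf1KO gliomas, with median differences of -4.72, -1.94 and -0.79. The list's mean was 12.52 to 12.76 in Z1 forebrain, 7.15 to 9.36 in cis p53/Nf1 gliomas, 10.65 to 11.16 in Z2 forebrain, 6.06 to 11.05 in p53 gliomas and 9.46 to 10.69 in p53 Nf1KO gliomas. In bulk tissue fewer neurons and less RNA per neuron cannot be told apart, and the part of the neuronal share in the values of Adam11, Adam22, Adam23, Mmp17 and Mmp24 was not tested. Of 8 genes listed as partners of ADAM22 and ADAM23, 6, 4 and 1 were called lower in the 3 models and none higher. These are 75%, 50% and 12.5%, where 20.3%, 20.6% and 3.04% of all features were called lower. Lgi1, the ligand, differed by -4.52 ± 0.65, -1.73 ± 0.59 and -0.86 ± 0.69 (limma adjusted p = 3.42e-06, 0.0218 and 0.442). Dlg4, the postsynaptic scaffold protein that binds ADAM22, fell by 2.90 ± 0.31, 1.67 ± 0.28 and 1.46 ± 0.33.

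**Figure D4:**
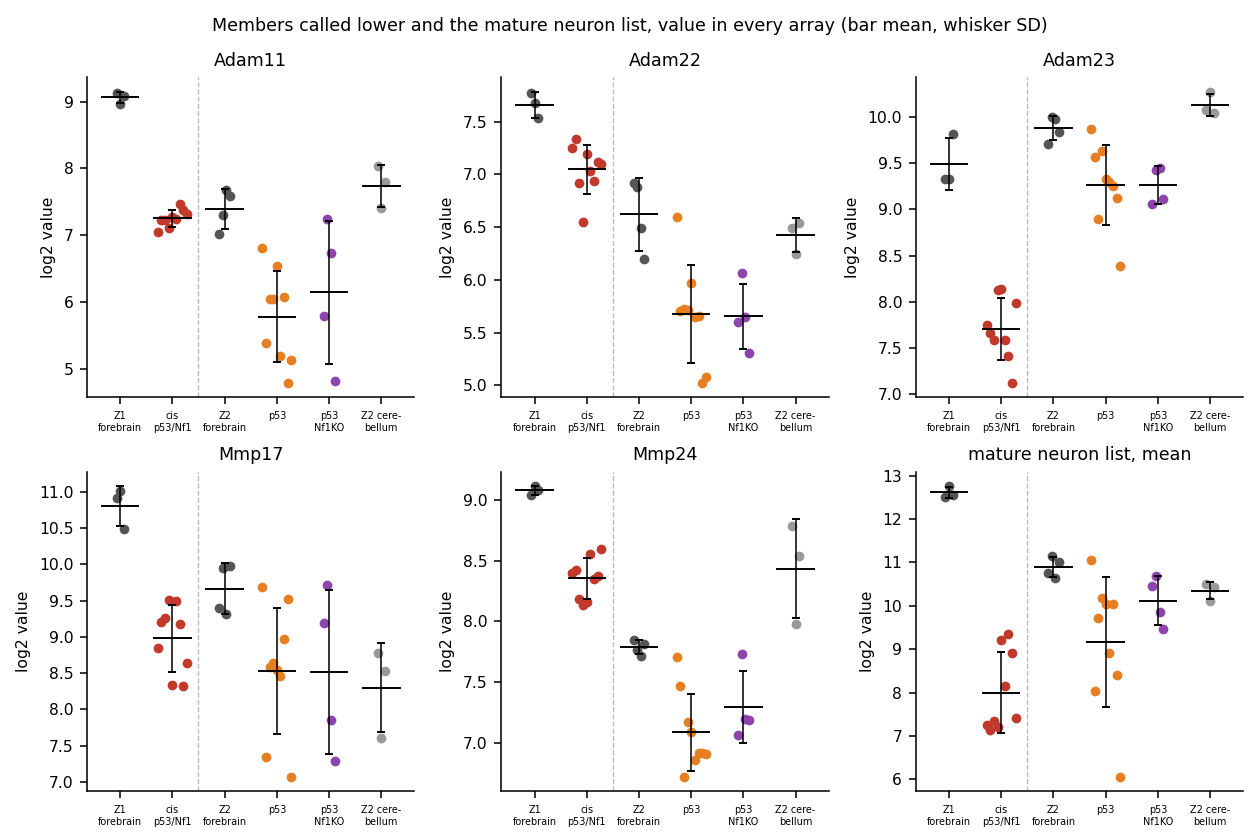
Log2 value in every array for Adam11, Adam22, Adam23, Mmp17 and Mmp24 and for the mean of 10 mature neuron markers, with the group mean (bar) and SD (whisker); the dashed line parts set Z1 from set Z2. All 9 cis p53/Nf1 gliomas lie below their forebrains in each panel, and the neuron mean of p53 glioma 1 is 11.05, inside the Z2 forebrain range of 10.65 to 11.16.

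Of the ADAMTS enzymes, the hyalectanases, which cut the aggrecan and versican family of proteoglycans, were 5 measured genes. Adamts1 rose in each model. It read 8.71, 8.21 and 8.39 in Z1 forebrain and 9.23 to 11.46 (median 11.17) in cis p53/Nf1 gliomas, and in Z2 6.29, 6.18, 7.16 and 6.54 in forebrain, 6.43 to 11.19 (median 9.12) in p53 gliomas and 9.70, 7.46, 8.37 and 9.90 in p53 Nf1KO gliomas. All but 1 of the 22 gliomas exceeded their forebrains, and the rises were 5.11-fold, 5.93-fold and 4.97-fold (2.35 ± 0.60, 2.57 ± 0.54 and 2.31 ± 0.64; limma adjusted p = 0.00212, 0.000724 and 0.0242). The call in p53 Nf1KO gliomas was lost without Z2 forebrain 1, 2 or 4 or p53 Nf1KO glioma 1 or 4.

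Adamts5 rose by 1.29 ± 0.47 and 1.50 ± 0.42 in cis p53/Nf1 and p53 gliomas (adjusted p = 0.0276 and 0.00675), and its difference in p53 Nf1KO gliomas was 1.32 ± 0.50 (adjusted p = 0.092). The first of these calls was lost without Z1 forebrain 1 or 2, and the difference in p53 Nf1KO gliomas was called without p53 Nf1KO glioma 2. Adamts4, the other main aggrecanase, differed by 0.21 ± 0.42, 0.62 ± 0.37 and -0.09 ± 0.44 and was called nowhere. Adamts15 fell in p53 gliomas, by 1.39 ± 0.36 (adjusted p = 0.00341), from 6.90, 6.60, 8.20 and 6.78 to 4.74 to 6.80 (median 5.57), while p53 Nf1KO gliomas read 6.99, 6.84, 7.35 and 6.32. Adamts8 was not called. Of the other ADAMTS genes, Adamts10, which binds fibrillin fibres, rose by 0.82 ± 0.23 and 0.81 ± 0.21 in cis p53/Nf1 and p53 gliomas. Adamts7 rose in cis p53/Nf1 gliomas, from 7.14, 6.45 and 6.75 to 7.83 to 9.04 (median 8.26), by 1.62 ± 0.29 (adjusted p = 5.35e-05). Its change there exceeded that in p53 Nf1KO gliomas by 1.48 ± 0.43 (adjusted p = 0.0451), a call that was lost when any 1 of 14 arrays was left out. The procollagen N-proteinases Adamts2 and Adamts3 were not called.

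The substrates of these enzymes moved in both directions. Of 8 measured hyalectans, link proteins and tenascin, 4 rose and 2 fell in cis p53/Nf1 and in p53 gliomas, and 2 rose in p53 Nf1KO gliomas. The called shares were 75%, 75% and 25%, against 42.1%, 38.3% and 8.27% of all features. Versican (Vcan) rose by 3.46 ± 0.57, 3.54 ± 0.51 and 2.33 ± 0.60 (limma adjusted p = 1.73e-05, 1.54e-05 and 0.0171), and brevican (Bcan) by 1.61 ± 0.30, 0.96 ± 0.27 and 1.23 ± 0.32. Tnc, tenascin C, rose by 3.50 ± 0.88 and 4.07 ± 0.80 in the first 2 models. Hapln4, a link protein of perineuronal nets, fell by 2.59 ± 0.58 and 1.80 ± 0.52 there.

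Of the 4 inhibitors, Timp1 was the only one called in a glioma model with all groups and arrays fitted together. Timp2, Timp3 and Timp4 were called in no glioma model in that fit. Timp1 read 5.04, 4.50, 4.45 and 4.95 in Z2 forebrain, 5.38 to 11.28 (median 8.49) in p53 gliomas and 8.51, 6.55, 9.54 and 5.96 in p53 Nf1KO gliomas, with no overlap. It was 13.8-fold higher in p53 gliomas (3.79 ± 0.75, limma adjusted p = 0.000395) and 7.5-fold higher in p53 Nf1KO gliomas (2.91 ± 0.88, adjusted p = 0.0384), the latter call being lost without any single Z2 forebrain and without p53 Nf1KO glioma 1 or 3. Without p53 glioma 1 the former was 4.18. In Z1 it read 7.83, 6.92 and 6.81 in forebrain and 7.42 to 10.50 (median 8.88) in cis p53/Nf1 gliomas. There 8 of 9 gliomas lay above all forebrains, and the difference of 1.87 ± 0.83 missed the threshold (adjusted p = 0.0701) but was called without glioma 9, with arrays scaled to one spread and in the fit to the compared groups alone. The changes in cis p53/Nf1 and p53 gliomas were not called different (-1.91 ± 1.11, adjusted p = 0.42).

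Timp2, which binds Mmp14 and takes part in activating Mmp2, differed by -0.64 ± 0.36, -0.50 ± 0.32 and -0.31 ± 0.38. In the fit to the compared groups alone Timp2 was called lower in cis p53/Nf1 gliomas (limma adjusted p = 0.0153). There 8 of 9 gliomas lay below all forebrains. Timp3, which is held in the matrix and inhibits ADAM17, differed by 0.19 ± 0.33, 0.42 ± 0.30 and -0.12 ± 0.35, and was 10.81 in p53 glioma 2 against at most 9.66 in the others. Timp4 differed by 0.11 ± 0.41, 0.72 ± 0.37 and 0.07 ± 0.44, and was called higher in p53 gliomas without p53 glioma 8 (limma adjusted p = 0.0401). The groups overlapped for each of these 3 genes in each model. Reck, a membrane-anchored inhibitor of MMPs, was not called in any model either (0.18 ± 0.25, 0.10 ± 0.23 and -0.34 ± 0.27).

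**Figure D5:**
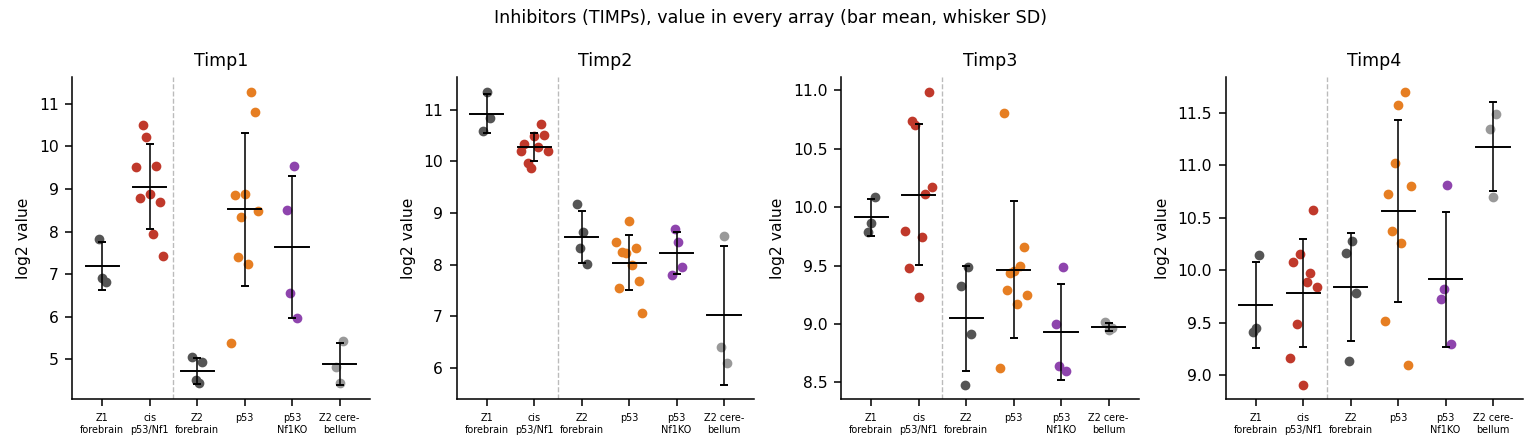
Log2 value in every array for Timp1, Timp2, Timp3 and Timp4, with the group mean (bar) and SD (whisker), for the 6 groups; the dashed line parts set Z1 from set Z2. Timp1 is 4.45 to 5.04 in Z2 forebrain and 5.38 to 11.28 in p53 gliomas, while the gliomas and forebrains overlap for the other 3 inhibitors.

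Of the remaining members, few were called. Of 15 ADAMs outside these roles, most of them known from testis and sperm, none was called in the cis p53/Nf1 model. Adam5 rose in p53 gliomas by 1.19 ± 0.22 (limma adjusted p = 0.000238) and Adam21 fell by 0.95 ± 0.28 (adjusted p = 0.00887), and Adam5 also rose in p53 Nf1KO gliomas by 0.91 ± 0.26 (adjusted p = 0.03). The latter call was lost with arrays scaled to one spread and without Z2 forebrain 2, 3 or 4 or p53 Nf1KO glioma 1, 3 or 4, and the Adam21 call without Z2 forebrain 3. Adam5 read 3.74, 3.24, 2.92 and 3.25 in Z2 forebrain and 3.72 to 5.73 (median 4.26) in p53 gliomas. Adam5 belongs to the 19 members whose group mean stayed in the lowest 25% of features in every group, of which 4 were called in a glioma model (Adam5, Adam28, Mmp13 and Mmp19). In p53 gliomas Mmp19 rose by 0.46 ± 0.17 and Mmp23 fell by 0.91 ± 0.24. In all, 33 of the 60 members were called in no glioma model, and this share was not counted over all features.

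Other protease systems of the pericellular space were described from lists of their known members. Of 8 cysteine and aspartic cathepsins, lysosomal proteases that tumours and macrophages also secrete, 6, 6 and 4 were called higher in the 3 models and none lower. Ctsc rose by 2.97 ± 0.40, 2.28 ± 0.36 and 1.89 ± 0.43, and Ctsz by 1.70 ± 0.28, 1.51 ± 0.25 and 1.26 ± 0.29. Of 8 genes of the plasminogen system, whose protease plasmin activates MMP precursors, 4 rose and 1 fell in the cis p53/Nf1 model, 5 rose and 1 fell in p53 gliomas and 2 rose in p53 Nf1KO gliomas. Plat, tissue plasminogen activator, rose by 1.43 ± 0.38, 1.52 ± 0.35 and 1.38 ± 0.41. Serpini1, a neuronal serine protease inhibitor, fell by 4.67 ± 0.49 and 1.40 ± 0.44 in the first 2 models. Of 20 further regulators of these families, 4 rose and 5 fell, 3 rose and 2 fell, and 1 rose in the 3 models. Called shares in the 3 models were 75%, 75% and 50% for cathepsins and 62.5%, 75% and 25% for plasminogen genes. They were 45%, 25% and 5% for these regulators, against 42.1%, 38.3% and 8.27% of all features. Rhbdf1, a rhomboid-like protein that brings ADAM17 to the cell surface, rose by 1.96 ± 0.40, 1.98 ± 0.36 and 1.60 ± 0.42, and Tspan33, a partner of ADAM10, fell by 1.47 ± 0.33 and 1.56 ± 0.30 in the first 2 models. Of 10 microglia and macrophage markers 4 rose and 1 fell, 5 rose, and 2 rose in the 3 models. The list's mean was 8.97 to 9.52 in Z1 forebrain and 9.02 to 10.35 in cis p53/Nf1 gliomas, and 7.68 to 8.06 in Z2 forebrain against 8.25 to 9.52 and 8.25 to 8.84 in the Z2 gliomas, and its part in the cathepsin values was not tested.

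In normal brain, cerebellum and forebrain of set Z2 differed in 6 members, 5 higher and 1 lower in cerebellum, where 5.15% of all features were called (2.76% higher and 2.39% lower). Mmp23 read 8.03, 6.68 and 8.35 in cerebellum and 5.73, 5.04, 6.05 and 5.39 in forebrain, a rise of 2.13 ± 0.31 (limma adjusted p = 4.2e-05). Timp2 was lower by 1.52 ± 0.41 (adjusted p = 0.0255), with 6.39, 8.55 and 6.09 in cerebellum against 9.18, 8.33, 8.63 and 8.01, and cerebellum 2 lay inside the forebrain range. Mmp20, Mmp24, Adamts10 and a probe set shared by Adam1a and Mapkapk5 were the other 4 called higher. Of the 6, Mmp23 alone was called in the fit to the compared groups, and without cerebellum 1 it was again the 1 member called.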

How the data were processed

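Total RNA of 32 mouse brain and glioma samples was hybridised to Affymetrix mouse arrays, per the labels. The values are log2 expression per probe set, as the authors deposited them in a normalized matrix; the labels and file headers do not say how they were normalized. A gene with several probe sets was represented by the one with the highest mean over all arrays. Group means of the 6 groups were fitted together with limma 3.58.1 in R 4.3.3, with 7 contrasts, and p-values were adjusted by the Benjamini-Hochberg method over all 17297 features. A feature was called at an adjusted p under 0.05. No value was filtered or imputed. The fit was tested on simulated data. The number of arrays limits the precision.

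The members and gene lists were chosen with earlier results of these data known. Named in each comparison were 14 preset members and up to 6 called members with the largest difference in each direction. Adam8, Adam28, Adamts10, Adamts15, Mmp3, Mmp8, Mmp10, Mmp19 and other members outside that rule in a comparison were named after their values were seen. Alternatives were quantile normalization, centring and scaling of arrays, a filter on low values, averaged probe sets, limma trend, a fit to the compared groups, the replicate number as a block and leaving out each array. Promoters are from RefSeq. Genes not on the arrays were not analysed here, and 1 listed gene is not reported here by its values.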

Additional observations from a re-analysis of the deposited data

Results flagged for a closer look

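Dixon's test at the 95% level was applied to 120 groups of member values and marked 6 values, in 4 arrays, as far from the rest of their group, where chance alone marks about 1 in 20 groups. The 120 groups did not cover every member in every group, so far values among the rest are not marked here. In p53 glioma 1, Adam12 was 6.54 against 8.59 in the next lowest glioma, and Adam17 was 6.75 against 7.82. In cis p53/Nf1 glioma 8, Mmp2 was 12.35 against 10.20 in the next highest glioma, and Mmp16 was 6.15 against 8.78 in the next lowest. Timp3 was 10.81 in p53 glioma 2 against 9.66 in the next. Mmp14 was 4.61 in Z2 forebrain 1 against 4.79 in the next.

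The changes from forebrain differed between models by a limma test of the difference for 3 members. Against the p53 change 1.67% of members were called, where 1.75% of all features were. Against the p53 Nf1KO change 5% of members were called, where 3.94% of all features were. The Adam23 change in cis p53/Nf1 gliomas was -1.16 relative to the change in p53 gliomas (adjusted p = 0.0342) and -1.16 relative to that in p53 Nf1KO gliomas (adjusted p = 0.033). The Adam10 change exceeded that in p53 Nf1KO gliomas by 1.51 (adjusted p = 0.0163), and the Adamts7 change did so by 1.48 (adjusted p = 0.0451). The dimmer Adam23 probe set was called in neither comparison, and each of these calls was lost when some single arrays were left out. Array set and genotype cannot be told apart in these comparisons.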

How the results depend on the processing

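Of 2629 values of 123 named results under the alternatives, 2470 stayed on their side of the threshold, 129 lost the call and 30 gained it. The sign changed in 67 values of 23 results, and in none of these was the difference called under either setting. The members called in cis p53/Nf1 gliomas numbered 17, and 15 to 18 with each array left out in turn, 21 with arrays scaled to one spread and 24 in the fit to the compared groups. In p53 gliomas the number was 24, and 21 to 26 with arrays left out. In p53 Nf1KO gliomas it was 9, and 2 to 14 with arrays left out: 14 without p53 Nf1KO glioma 2, 2 without glioma 4 (Timp1 and Adam12), 4 without glioma 1 or Z2 forebrain 4, and 5 without Z2 forebrain 2 or 3. Between p53 Nf1KO and p53 gliomas it was 0 to 1. For the difference of the cis p53/Nf1 and p53 changes, 1 member was called, and 0 to 2 with arrays left out; it was 2 with quantile normalization, with centred arrays and with the filter on low values, 0 with averaged probe sets and 6 with arrays scaled to one spread (Adam23, Mmp15, Adam12, Adam10, Adam9 and Adamts7). For the cis p53/Nf1 and p53 Nf1KO changes, 3 were called, 0 to 3 with arrays left out and 5 with scaled arrays. For cerebellum, 6 were called, 1 to 7 with arrays left out and 1 in the fit to the compared groups. The cause of these shifts was not tested. With the replicate number as a block, 3 members were called in p53 gliomas, 14 in cis p53/Nf1 gliomas, 6 in p53 Nf1KO gliomas, 2 and 3 for the differences of changes and 2 for cerebellum. Deviations from the group mean correlated above 0.1 in 4 of 24 pairs of same-numbered samples (range -0.332 to 0.375). The highest were 0.375 for Z2 forebrain 3 and p53 Nf1KO glioma 3, and 0.336 for Z2 cerebellum 4 and Z2 forebrain 4. The labels do not say whether same-numbered samples were paired, and these correlations cannot decide it.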
